A study of Mus musculus with 7 samples.

Results

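The circadian clock genes described here are 10 genes of the molecular clock, Arntl, Clock, Per1, Per2, Per3, Cry1, Cry2, Nr1d1, Nr1d2 and Dbp, chosen by name and found by symbol among the 42689 genes measured. All 10 were present in the 7 deposited libraries and all 10 passed the filter on low counts. RNA was sequenced from hindlimb tendon of mice of C57BL/6 background in a study of the kinase TAK1 and heterotopic ossification, the formation of bone in soft tissue after injury. The tenotomy group (n = 2) was the tissue between the gastrocnemius muscle and the heel bone 3 weeks after the Achilles tendon was cut and the back was burned to partial thickness (30% of the surface, 60 °C metal, 18 s). The contralateral group (n = 3) was the uncut tendon of the other hindlimb of mice with the same burn and tenotomy, also at 3 weeks. The uninjured group (n = 2) was tendon of wild-type mice with neither burn nor tenotomy. The injured mice also had isoflurane and, for pain, buprenorphine over 2 days. No label names a transgene, a Cre line or another drug for these groups. Age, sex, the time of day at which tissue was taken and the lighting schedule are not given in the sources used here. No label says which libraries came from the same mouse or from separate mice, so p-values measure the spread between these libraries only.

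The clock is a feedback loop of transcription that runs in nearly every cell. The proteins of Arntl (BMAL1) and Clock bind E-box sequences as a pair and switch on the Period and Cryptochrome genes, whose products in turn block the pair. The same pair switches on Nr1d1 and Nr1d2 (REV-ERB alpha and beta), which repress Arntl, and Dbp, a PAR bZIP transcription factor that drives output genes through D-box sequences. In mouse tissues the RNA of Arntl is high around the end of the night and low late in the day. The RNAs of Nr1d1 and Dbp peak during the light phase, those of the Period genes follow around dusk, and Cry1 peaks later. A set of samples taken at different times of day therefore tends to show Arntl moving against Dbp and Nr1d1.

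Among the activators, Arntl (ENSMUSG00000055116.8) lies on chromosome 7, 113207465 to 113314126, plus strand, and Clock (ENSMUSG00000029238.11) on chromosome 5, 76209868 to 76304792, minus strand, in the GRCm38 build and GENCODE M21 annotation. Of the Period repressors, Per1 (ENSMUSG00000020893.17) lies on chromosome 11, 69095217 to 69109960, plus strand. Per2 (ENSMUSG00000055866.9) lies on chromosome 1, 91415982 to 91459324, minus strand, and Per3 (ENSMUSG00000028957.12) on chromosome 4, 151003652 to 151044665, minus strand. The Cryptochrome repressors Cry1 (ENSMUSG00000020038.10) and Cry2 (ENSMUSG00000068742.11) lie on chromosome 10, 85131700 to 85185064, and chromosome 2, 92403646 to 92434043, both on the minus strand. Nr1d1 (ENSMUSG00000020889.11) lies on chromosome 11, 98767932 to 98775333, and Nr1d2 (ENSMUSG00000021775.11) on chromosome 14, 18204054 to 18239127, both on the minus strand. Dbp (ENSMUSG00000059824.12) lies on chromosome 7, 45705088 to 45710203, plus strand. Counts are of the whole gene, exons of all its listed transcripts together.

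RefSeq upstream sequence (build GRCm38.p6) was available for 9 of the 10 genes, all but Per2, in 13 windows of 250 bases that end just before a transcription start. They were searched on both strands for the E-box CACGTG, the noncanonical E-box CACGTT, the D-box TTATGTAA or TTACGTAA, and the core of the element bound by REV-ERB and ROR proteins, TAGGTCA or TGGGTCA. The E-box and the noncanonical E-box differ in their last base and cannot match the same letters. The E-box was found for 2 genes (Per1 and Cry1), the noncanonical E-box for 3 (Cry1, Cry2 and Nr1d1), the D-box for 1 (Per3) and the REV-ERB and ROR core for 0. Among all 32817 RefSeq windows of this length, 6.02% held the E-box, 3.85% the noncanonical E-box, 0.929% the D-box and 5.39% the REV-ERB and ROR core. The windows of Nr1d1, Per1, Cry1 and Per3 are shown because they hold the matches for a gene that changed at the tenotomy site (Nr1d1) and for genes of the other branches of the loop. Capitals mark the matched letters, read 5′ to 3′ on the strand of the gene. The windows are chr11:98775378-98775627 (minus) for Nr1d1, chr11:69098699-69098948 (plus) for Per1, chr10:85185055-85185304 (minus) for Cry1 and chr4:151044666-151044915 (minus) for Per3.
Nr1d1: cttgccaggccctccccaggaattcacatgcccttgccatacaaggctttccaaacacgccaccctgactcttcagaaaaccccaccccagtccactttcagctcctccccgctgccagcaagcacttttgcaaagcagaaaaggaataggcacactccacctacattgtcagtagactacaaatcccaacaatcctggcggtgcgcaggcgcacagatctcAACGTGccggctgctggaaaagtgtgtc
Per1: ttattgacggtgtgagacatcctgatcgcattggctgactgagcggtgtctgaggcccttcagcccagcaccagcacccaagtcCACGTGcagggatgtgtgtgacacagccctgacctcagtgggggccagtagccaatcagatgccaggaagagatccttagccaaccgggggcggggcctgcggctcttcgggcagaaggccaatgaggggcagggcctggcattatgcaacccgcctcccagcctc
Cry1: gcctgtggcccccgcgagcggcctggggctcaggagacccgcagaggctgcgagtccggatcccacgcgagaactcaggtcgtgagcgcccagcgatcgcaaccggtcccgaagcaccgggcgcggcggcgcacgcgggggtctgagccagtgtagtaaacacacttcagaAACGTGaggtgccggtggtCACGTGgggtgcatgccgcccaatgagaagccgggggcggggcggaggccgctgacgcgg
Per3: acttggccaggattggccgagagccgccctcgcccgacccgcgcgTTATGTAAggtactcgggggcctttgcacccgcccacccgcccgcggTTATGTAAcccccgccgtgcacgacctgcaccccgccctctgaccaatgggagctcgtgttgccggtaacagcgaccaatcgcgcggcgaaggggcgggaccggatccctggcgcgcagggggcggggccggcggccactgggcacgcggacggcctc
The match of Nr1d1 is the noncanonical E-box read on the opposite strand, and begins 28 bases before the start. Cry1 has the same letters 79 bases before its start and an E-box at 60 bases. The E-box of Per1 begins 166 bases before its start, and the D-boxes of Per3 begin 205 and 158 bases before. A match describes these letters and is not evidence that a factor bound there.

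Library totals ranged from 25927171 to 36725106 estimated counts, of which the 5 largest features took 76.41% to 81.4%. The 10 clock genes together held 2175 to 3819 counts per library. Skeletal muscle markers (12 genes, summed) stood at 5002 to 6726 CPM (counts relative to library size, scaled by trimmed mean of M values) in contralateral and 560.0 to 562.0 in tenotomy libraries. The uninjured libraries did not resemble each other: replicate 1 stood at 708.4 and replicate 2 at 5192. Across all 16028 genes kept, the root mean square difference in log2 CPM was 0.47 and 0.48 between uninjured replicate 1 and the tenotomy libraries, and 0.90 between the uninjured libraries. Uninjured replicate 2 was 0.51 to 0.53 from the contralateral libraries. The cartilage gene Col2a1 stood at 16.6 CPM in uninjured replicate 1 and 1.55 in replicate 2, and the proliferation gene Mki67 at 5.82 and 0.619, beside 0.402 to 0.655 and 0.750 to 0.866 in contralateral and 125.4 to 126.1 and 6.87 to 7.23 in tenotomy libraries. Uninjured replicate 1 thus resembled the tenotomy libraries and went against its label, and whether it is labelled correctly was not tested. Each comparison with the uninjured group depends on this, and its results are given with and without each uninjured library. The tendon markers were detected in every library, the transcription factor Scx at 0.464 to 1.73 CPM and Tnmd at 5.41 to 28.5 CPM. Their sum over 8 genes was 547.2 to 772.1 CPM in contralateral, 3000 and 3017 in tenotomy and 2745 and 2473 in uninjured libraries, led by the collagen gene Col1a1.

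All 7 libraries had the least RNA of Arntl, and in each of them Cry2, Per2, Clock, Cry1 and Arntl followed in this order below the other 5 clock genes. The order of those 5 differed between libraries, with Dbp highest in uninjured replicate 2 and Per1 in tenotomy replicate 2. Per kilobase of effective transcript length, Nr1d2 was highest on average, with a mean over 7 libraries of 5.01 CPM per kb (3.70 to 6.34), followed by Dbp at 4.70 (2.98 to 6.61). Per3 at 3.88 (3.12 to 4.75), Per1 at 3.87 (3.00 to 5.06) and Nr1d1 at 3.37 (2.15 to 4.69) came next, and the ranges of these first 5 genes overlap. Cry2 stood at 1.99 (1.36 to 2.69), Per2 at 1.48 (1.17 to 2.02) and Clock at 1.05 (0.905 to 1.16). Cry1 at 0.543 (0.402 to 0.733) and Arntl at 0.211 (0.141 to 0.271) were the lowest, and no other gene's range reached theirs.

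The ratio of Arntl to Dbp or Nr1d1, which peak in the opposite phase, taken within a library, does not depend on the scaling between libraries. On the log2 scale of CPM per kb, Arntl minus Dbp was -4.98, -4.67 and -5.06 in contralateral replicates 1 to 3 and -3.87 and -3.57 in the tenotomy replicates. It was -3.62 in uninjured replicate 1 and -5.31 in uninjured replicate 2. Arntl was thus far below Dbp in each library, and the tenotomy libraries and uninjured replicate 1 were the least extreme. Arntl minus Nr1d1 gave the same split, from -4.62 to -4.17 in contralateral libraries, -3.41 and -3.10 in tenotomy libraries, -3.22 in uninjured replicate 1 and -4.74 in uninjured replicate 2. The tenotomy mean lay above the contralateral mean by 1.18 for the ratio to Dbp, 1.19 to Nr1d1, 1.03 to Nr1d2, 0.80 to Per2, 0.72 to Per1 and 0.67 to Per3. For each of these 6 ratios the tenotomy values lay above all contralateral values. These differences are partly set by Arntl, which had 10 to 22 counts per library, and no test was made of them. Without contralateral replicate 1, the differences for Per1, Per2 and Per3 were 0.43, 0.48 and 0.40. Whether collection time contributed was not tested.

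**Figure D1:**
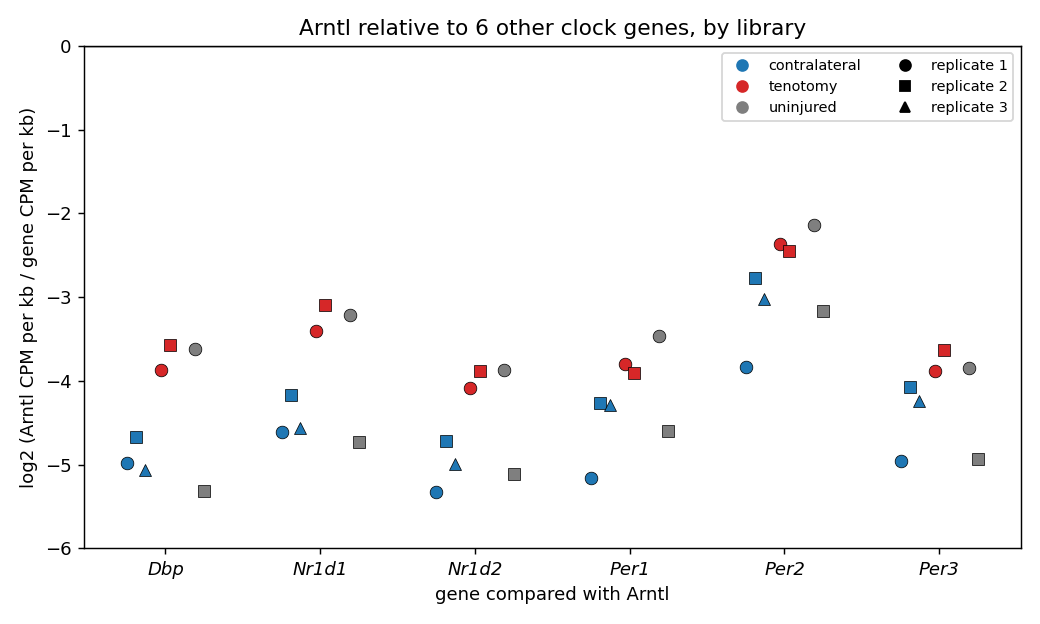
Log2 ratio of Arntl to each of 6 genes (vertical axis, both genes in CPM per kb) in each library, by group (colour) and replicate (marker). All points lie below 0, the tenotomy libraries and uninjured replicate 1 lie nearest to 0, and uninjured replicate 2 lies among or below the contralateral libraries.

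The first comparison asked how the cut tendon differed from the uncut tendon of the other limb. Nr1d1 and Nr1d2 fell at the tenotomy site, 1.81-fold and 1.61-fold, and were the clock genes past the threshold (an adjusted p of 0.05 over all 16028 genes in an edgeR quasi-likelihood fit of all 7 libraries). No clock gene rose. The background was similar or higher: 29.0% of all genes passed (15.4% of all genes were lower and 13.6% higher), against 2 of 10 clock genes, so the count of calls does not set the clock genes apart. The clock genes had a median log2 fold change of -0.42 and the same median absolute change, against 0.00 and 0.50 over all genes kept (0.11 for the former with upper quartile scaling).

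Nr1d1, which encodes the repressor REV-ERB alpha, stood at 8.34, 10.2 and 11.3 CPM in the contralateral libraries, 5.77 and 5.19 CPM in the tenotomy libraries, and 6.07 and 9.99 CPM in the uninjured libraries. Each tenotomy value was below each contralateral value, and uninjured replicate 1 lay near the tenotomy libraries. Mean Nr1d1 was 5.48 CPM ± 0.400 (SD, n = 2) in cut and 9.94 ± 1.50 (SD, n = 3) in uncut tendon, and the log2 fold change, -0.86 with SE 0.24, had an edgeR adjusted p of 0.0345. Nr1d2, its close relative REV-ERB beta, stood at 23.3, 25.4 and 26.0 CPM in contralateral, 15.7 and 15.2 in tenotomy and 16.2 and 22.1 in uninjured libraries. Again the tenotomy values lay below all contralateral values, 15.4 CPM ± 0.330 (SD, n = 2) against 24.9 ± 1.44 (SD, n = 3), and the log2 fold change, -0.69 with SE 0.18, had an edgeR adjusted p of 0.0287. When length-scaled TPM replaced counts, Nr1d1 stayed just past the threshold (edgeR adjusted p = 0.0497) and Nr1d2 did not (0.0536).

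Dbp, the output factor, had the same size of change as Nr1d1 but a larger spread. It stood at 6.84, 9.23 and 10.1 CPM in contralateral, 5.07 and 4.57 in tenotomy and 5.09 and 9.49 in uninjured libraries. The contralateral values were spread widely and still lay above both tenotomy values. The log2 fold change was -0.86 (SE 0.29) and missed the threshold (edgeR adjusted p = 0.0579). Dbp passed without a filter on low counts (edgeR adjusted p = 0.0237).

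**Figure D2:**
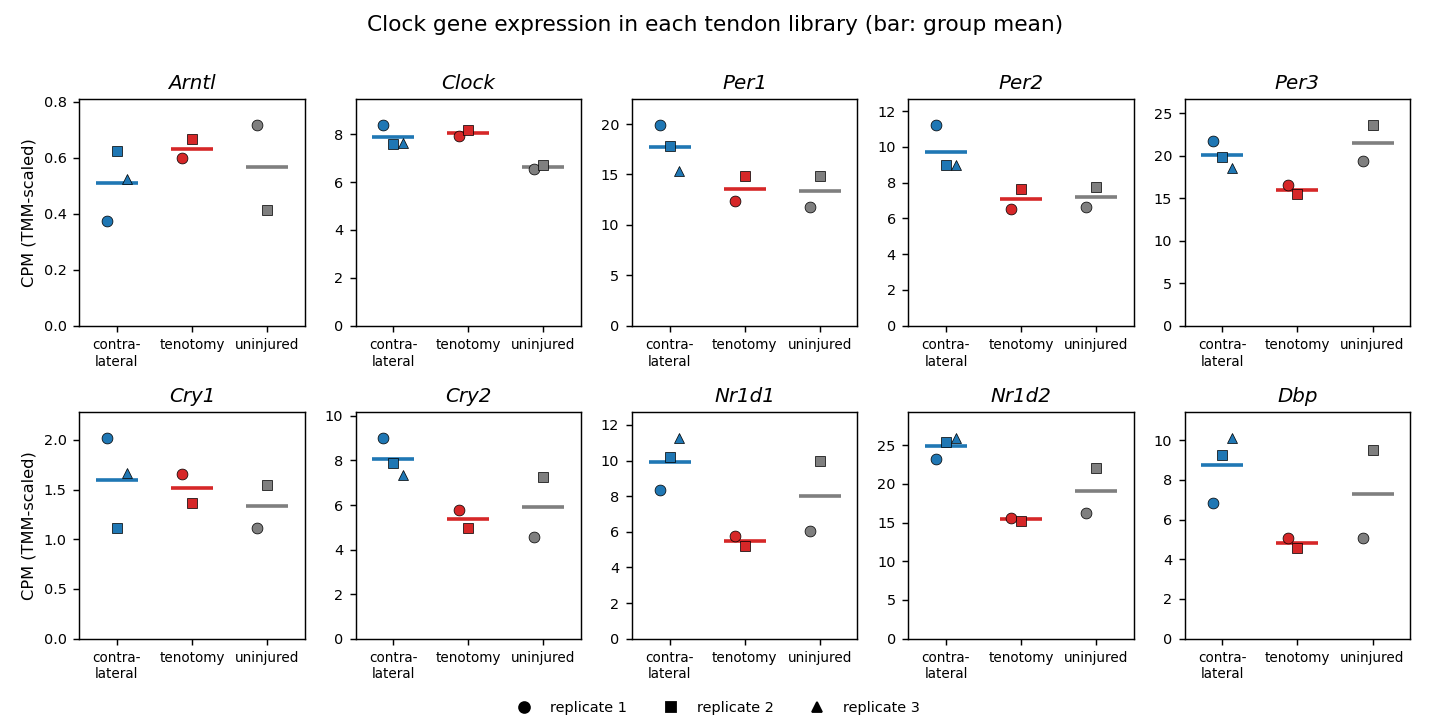
CPM (vertical axis, linear, starting at 0) of each clock gene in the 7 libraries, by group, with the group mean as a bar and the replicate as the marker. For Nr1d1, Nr1d2, Dbp, Cry2, Per1, Per2 and Per3 the tenotomy libraries lie below all contralateral libraries, and for Nr1d1, Nr1d2 and Dbp the uninjured libraries split between the levels of the other groups.

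None of the Period and Cryptochrome repressors passed the threshold at the tenotomy site. Cry2 stood at 9.03, 7.88 and 7.35 CPM in contralateral, 5.76 and 4.98 in tenotomy and 4.57 and 7.24 in uninjured libraries (log2 fold change tenotomy against contralateral -0.59, SE 0.22, edgeR adjusted p = 0.0780). Per2 stood at 11.2, 8.96 and 8.97 CPM in contralateral, 6.50 and 7.67 in tenotomy and 6.65 and 7.78 in uninjured libraries (-0.46, SE 0.17, edgeR adjusted p = 0.0830). Neither overlapped between tenotomy and contralateral tendon. With length-scaled TPM the log2 fold change was -0.23 for Cry2 and -0.85 for Per2 (edgeR adjusted p = 0.419 and 0.148). Per1, which also responds directly to glucocorticoids and cyclic AMP, stood at 19.9, 17.8 and 15.3 CPM in contralateral, 12.3 and 14.8 in tenotomy and 11.8 and 14.9 in uninjured libraries (-0.38, SE 0.19, edgeR adjusted p = 0.167). Per3 stood at 21.8, 19.8 and 18.6 CPM in contralateral, 16.5 and 15.5 in tenotomy and 19.4 and 23.7 in uninjured libraries (-0.33, SE 0.17, edgeR adjusted p = 0.175). Cry1 overlapped between the groups, at 2.02, 1.11 and 1.67 CPM in contralateral, 1.66 and 1.37 in tenotomy and 1.11 and 1.55 in uninjured libraries (-0.06, SE 0.29, edgeR adjusted p = 0.893).

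The activators did not pass the threshold and overlapped between tenotomy and contralateral tendon. Arntl stood at 0.375, 0.626 and 0.526 CPM in contralateral, 0.598 and 0.667 in tenotomy and 0.719 and 0.413 in uninjured libraries (log2 fold change 0.29, SE 0.34, edgeR adjusted p = 0.561). Its lowest value rested on 10 counts, with an exact 95% Poisson interval of 0.180 to 0.689 CPM, and its highest on 20 counts, with 0.439 to 1.11 CPM. These intervals cover counting error only. They overlap, which does not decide whether Arntl differed between these libraries, and the counts were not tested against each other. Clock varied least of the 10 genes, at 8.40, 7.57 and 7.64 CPM in contralateral, 7.91 and 8.17 in tenotomy and 6.54 and 6.71 in uninjured libraries (tenotomy against contralateral 0.03, SE 0.13, edgeR adjusted p = 0.881).

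Across the 10 clock genes, 7 had both tenotomy libraries below all contralateral libraries and 0 had them above. Over all genes kept, 31.8% were lower and 31.9% higher without overlap, 63.7% in all. An unadjusted p under 0.05 was found for 5 clock genes and for 43.3% of all genes. The number past the threshold depended on which libraries set the spread. It was 7 of 10, the same 7 genes, when the fit used only the groups compared (46.1% of all genes then passed) or left out uninjured replicate 1 (42.9%) or replicate 2 (43.5%). It was 0 of 10 when any contralateral library was left out, where 0 genes of the whole table passed either. In those fits 3 or 4 clock genes had an edgeR unadjusted p under 0.05, as did 5413 to 6148 of the 15701 to 16060 genes tested. These counts therefore do not set the clock genes apart. The log2 fold changes in these fits, and in those left with 1 tenotomy library, were -0.76 to -0.97 for Nr1d1 and -0.66 to -0.74 for Nr1d2. They were -0.86 and -0.69 with all libraries. Title numbers fall in 3 series, which no label calls a batch. Within the series that holds the contralateral libraries and tenotomy replicate 1, that library differed from the contralateral mean log2 CPM by -0.77 for Nr1d1, -0.66 for Nr1d2 and -0.76 for Dbp. With the series as a covariate, tenotomy replicate 1 alone set the tenotomy side, so this fit is not a separate comparison of the groups. Its log2 fold changes were -0.79 for Nr1d1, -0.67 for Nr1d2, -0.79 for Dbp and -0.28 for Per3.

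**Figure D3:**
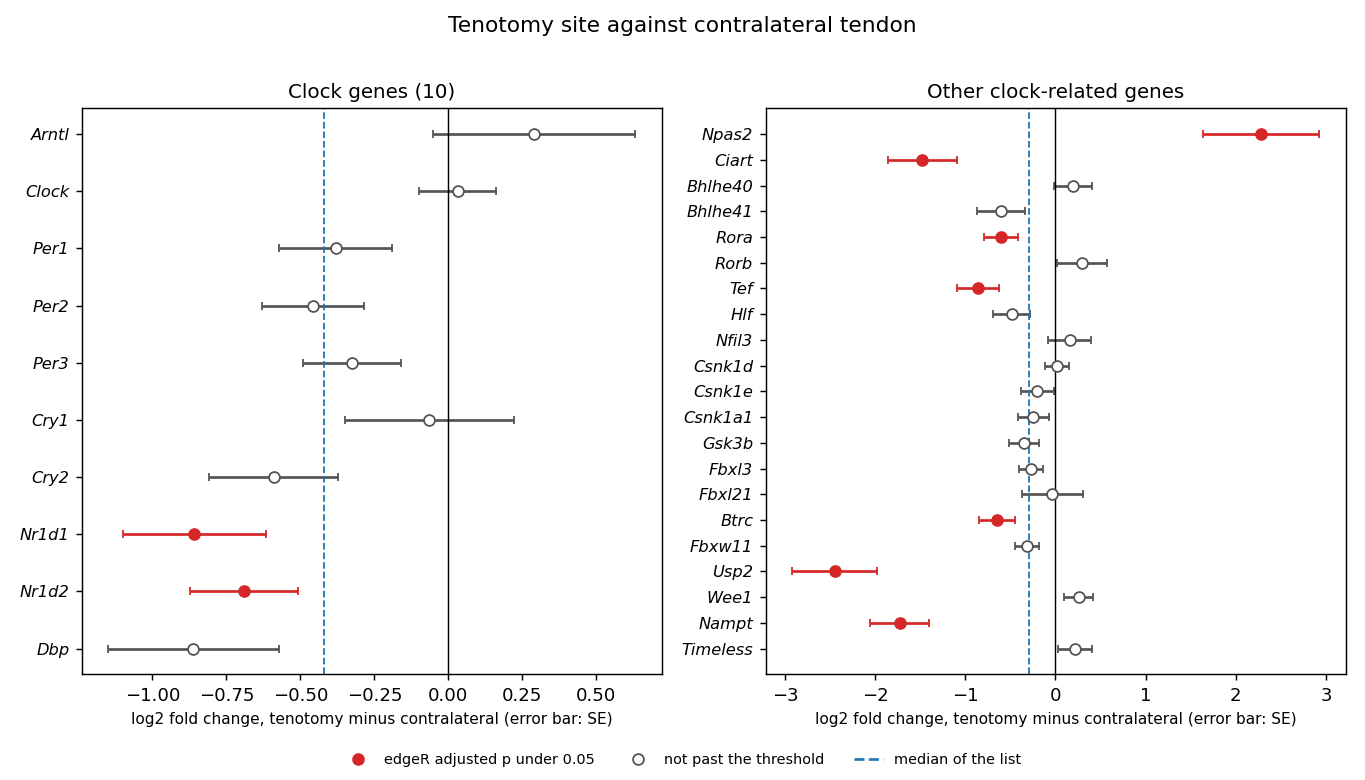
Log2 fold change of the tenotomy site against contralateral tendon (horizontal axis, with SE as the error bar) for the 10 clock genes and other clock-related genes, filled where the edgeR adjusted p was under 0.05. Nr1d1 and Nr1d2 are the filled points of the left panel, and in the right panel Npas2 at 2.28 and Usp2 at -2.45 are the extremes among the genes shown. The dashed line is the median of the whole list, -0.42 on the left and -0.29 on the right.

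A further 22 genes of the clock were taken as a list: partners, regulators, kinases, ubiquitin ligases and outputs. All 22 were tested, 7 fell, 1 rose and 14 did not pass, against the same backgrounds of 15.4% lower and 13.6% higher. The median log2 fold change was -0.29. Rora, an activator of Arntl that competes with the REV-ERB proteins, fell by 0.60 (log2; SE 0.19, edgeR adjusted p = 0.0498), a call lost with DESeq2 (adjusted p = 0.0524), with RLE and upper quartile scaling, with no filter on low counts, without the 5 largest features (edgeR adjusted p = 0.0576) and with length-scaled TPM (-0.39, edgeR adjusted p = 0.215). Usp2, a deubiquitinase with strong daily rhythm, fell by 2.45 (SE 0.47, edgeR adjusted p = 0.0167), from 20.9 to 26.0 CPM down to 4.46 and 4.40. Nampt, the rate-limiting enzyme of NAD salvage and a target of the clock, fell by 1.73 (SE 0.33, edgeR adjusted p = 0.0167). Tef, a PAR bZIP factor like Dbp, fell by 0.86 (SE 0.23, edgeR adjusted p = 0.0300), with 31.7 to 36.2 CPM in contralateral and 18.2 and 19.0 in tenotomy libraries. Ciart, a repressor of the BMAL1 and CLOCK pair, fell by 1.48 (SE 0.38, edgeR adjusted p = 0.0277) on 14 to 57 counts per library, a call lost with length-scaled TPM (edgeR adjusted p = 0.0671).

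Btrc, an F-box protein that marks Period proteins for destruction, fell by 0.65 (SE 0.20, edgeR adjusted p = 0.0446), a call lost with DESeq2 (adjusted p = 0.119), upper quartile scaling, length-scaled TPM and removal of the 5 largest features (edgeR adjusted p = 0.0706, 0.0835 and 0.0519). The gene that rose was Npas2, a relative of Clock that can take its place beside BMAL1, by 2.28 (SE 0.65, edgeR adjusted p = 0.0356). Its counts were 3, 5 and 4 in contralateral, 30 and 13 in tenotomy and 15 and 3 in uninjured libraries, and it missed the threshold with limma-voom (adjusted p = 0.0587) and with length-scaled TPM (edgeR adjusted p = 0.368). The casein kinases Csnk1d, Csnk1e and Csnk1a1, which phosphorylate Period proteins, had log2 fold changes of 0.02, -0.20 and -0.24 and did not pass. As for the 10 members, 0 of the 22 genes passed when a contralateral library was left out, where 0 of all genes passed. When the fit used only the groups compared, 13 of the 22 passed (59.1%), as did 46.1% of all genes.

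Several marker lists divided the libraries in the same way. The clock genes summed to 107.5 to 111.2 CPM in contralateral libraries and 103.8 in uninjured replicate 2, and to 77.8 and 78.2 in tenotomy libraries and 78.2 in uninjured replicate 1. Over all genes kept, 15.4% fell and 13.6% rose past the threshold at the tenotomy site. Skeletal muscle markers were lower there in 12 of 12 genes past the threshold, with a median log2 fold change of -3.14. Macrophage markers summed to 30.0 to 36.6 CPM in contralateral, 132.2 and 135.1 in tenotomy, 133.8 in uninjured replicate 1 and 37.7 in uninjured replicate 2, and 8 of 9 rose. Adipocyte markers summed to 227.8 to 260.8 CPM in contralateral and 90.1 and 90.2 in tenotomy libraries, and 3 of 7 fell. Cartilage markers summed to 3.42 to 4.61 CPM in contralateral and 234.1 and 238.4 in tenotomy libraries, and endothelial markers to 46.5 to 50.8 and 42.2 and 42.4. The defining markers Ckm, Adgre1, Adipoq, Pecam1 and Col2a1 were above 0 in all 7 libraries. In such bulk tissue, fewer cells of a type and less RNA per cell cannot be told apart. The part of these cell types in the change of the clock genes was not tested.

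Of 7 glucocorticoid-responsive genes, 4 fell at the tenotomy site (Fkbp5, Zbtb16, Sgk1 and Klf9) and 0 rose, where 15.4% of all genes fell. The others had log2 fold changes of -0.60 (Tsc22d3), 0.68 (the metallothionein Mt1, without overlap) and 0.51 (Mt2), with edgeR adjusted p of 0.0773, 0.107 and 0.348. The sum of the 7 was 123.8 to 153.1 CPM in contralateral libraries, highest in replicate 1, 80.6 and 78.3 in tenotomy libraries and 70.7 and 103.9 in uninjured libraries. Among immediate early genes, 5 of 10 rose (Fos, Fosb, Junb, Egr1 and Ier2) and 0 fell, where 13.6% of all genes rose. The other 5 had log2 fold changes of 0.98 (Atf3), 0.40 (Egr2), 0.003 (Dusp1), -0.02 (Jun) and -0.20 (Nr4a1). Their edgeR adjusted p were 0.130, 0.229, 0.995, 0.916 and 0.591, and Dusp1, Jun and Nr4a1 overlapped between the groups. Per1 belongs to both kinds of response by its known regulation, and its own values did not pass in either direction. The part of these responses in the clock genes was not tested.

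The second comparison set the tenotomy site against tendon of uninjured mice. No clock gene passed with edgeR (0 of 10), DESeq2 or limma-voom, and 0% of all genes passed with edgeR. With edgeR 1 clock gene, Per3, had an unadjusted p under 0.05, as did 10.9% of all genes. The log2 fold changes were -0.43 for Per3 (SE 0.18), -0.60 for Dbp (SE 0.31) and -0.55 for Nr1d1 (SE 0.26), with edgeR adjusted p of 0.458, 0.490 and 0.478. Both tenotomy libraries lay above both uninjured libraries for Clock (20.1% of all genes) and below for Per3, Nr1d1, Nr1d2 and Dbp (20.4%), so 5 of 10 did not overlap, against 40.5% of all genes. Without uninjured replicate 1, 4 clock genes were lower at the tenotomy site, Per3, Nr1d1, Nr1d2 and Dbp (edgeR adjusted p = 0.00928, 0.00443, 0.0130 and 0.00465), while 25.1% of all genes passed. Without uninjured replicate 2, 0 clock genes passed (0 had an unadjusted p under 0.05). In mean log2 CPM, uninjured replicate 1 differed from the tenotomy mean by a median of 0.18 over the clock genes (0.19 over all genes). Uninjured replicate 2 differed by 0.47 (0.43 over all genes). Tenotomy replicate 2 and uninjured replicate 1 share a title-number series, and their difference was -0.22 for Nr1d1, -0.09 for Nr1d2 and -0.16 for Dbp, from single libraries.

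The last comparison, contralateral against uninjured tendon, asked whether the uncut limb of injured mice differed from that of uninjured mice. No clock gene passed with edgeR (0 of 10), DESeq2 or limma-voom, and 0% of all genes passed with edgeR. With edgeR 1 clock gene, Per2, had an unadjusted p under 0.05 (19.2% of all genes did), and its log2 fold change was 0.43, with SE 0.17 and an edgeR adjusted p of 0.246. There were 5 clock genes with all contralateral libraries above both uninjured libraries, Clock, Per1, Per2, Cry2 and Nr1d2, and 0 below, where 18.9% and 16.6% of all genes were (35.5% in all). Without uninjured replicate 2, 6 clock genes were higher in contralateral tendon (Per1, Per2, Cry2, Nr1d1, Nr1d2 and Dbp), as 32.0% of all genes passed in either direction. Without uninjured replicate 1, 0 passed, and the fold changes of Nr1d1 and Dbp were -0.00090 and -0.11. These comparisons share libraries with the first and are not independent of it.

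Within the contralateral group, replicate 1 was compared with replicates 2 and 3, with no test. Relative to the mean of those, its log2 CPM differed by -0.54 for Arntl (on 10 counts in replicate 1), -0.50 for Dbp and -0.37 for Nr1d1. It was higher in Cry1 by 0.55, Per2 by 0.32, Per1 by 0.27, Cry2 by 0.24 and Per3 by 0.18. For Cry1, replicates 2 and 3 themselves differed by 0.56 in size (-0.56 as replicate 2 minus replicate 3), so Cry1 does not set replicate 1 apart. The median absolute difference was 0.30 over the clock genes and 0.21 over all genes kept, while contralateral replicates 2 and 3 differed by 0.12 and 0.20.

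These differences were noticed in the values, so the following ratios are a description. Dbp minus Per2, on the log2 scale of CPM per kb, was 1.14 in contralateral replicate 1 and 1.90 and 2.04 in replicates 2 and 3. It was 1.50 and 1.12 in tenotomy libraries and 1.48 and 2.15 in uninjured libraries. Contralateral replicate 1 and tenotomy replicate 2 were the lowest. Nr1d1 minus Per2 was lowest in the same libraries, 0.78, 1.40 and 1.54 in contralateral, 1.04 and 0.65 in tenotomy and 1.08 and 1.57 in uninjured libraries. Dbp and Nr1d1 themselves stayed together, with a ratio of 0.36 to 0.58 over the 7 libraries, as did Per1 and Per2, at 1.27 to 1.49. Whether hour of collection differed between these libraries was not tested.

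**Figure D4:**
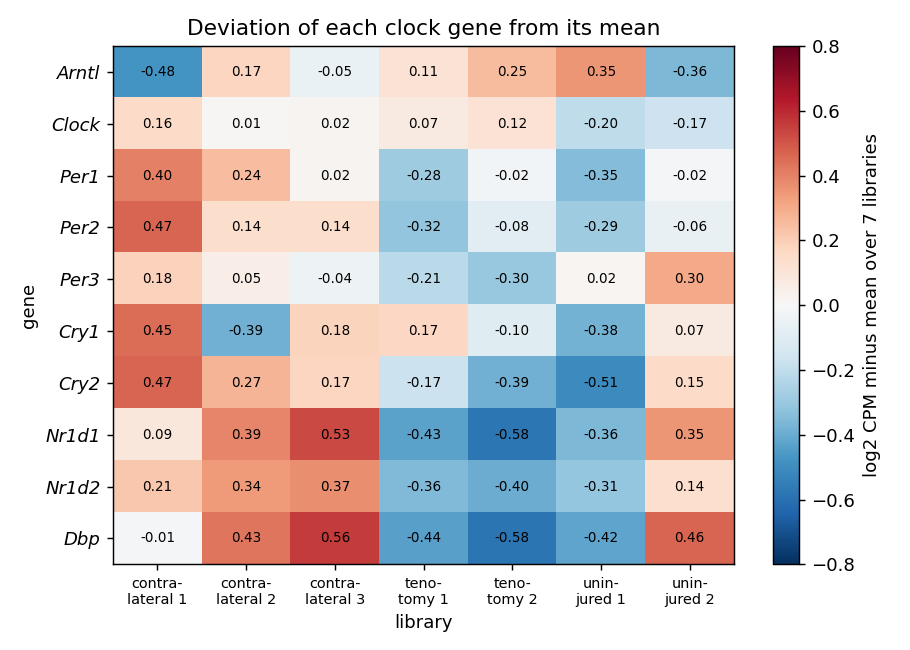
Log2 CPM of each clock gene minus its mean over the 7 libraries (colour and printed value), with genes in rows and libraries in columns. Dbp, Nr1d1 and Nr1d2 are below their mean in both tenotomy libraries and uninjured replicate 1. Contralateral replicate 1 has high Per2 (0.47) and Cry2 (0.47) and low Arntl (-0.48), the last on 10 counts and weakly measured.

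The range of the clock genes over all libraries was set beside that of all genes, without matching for level. The median of mean log2 CPM was 2.95 for the clock genes and 0.816 for all genes kept. Neither the ranges nor the SDs below therefore compare genes of like level. The highest library exceeded the lowest 2.22-fold for Dbp, 2.17-fold for Nr1d1, 1.98-fold for Cry2 and 1.28-fold for Clock. The median was 1.78-fold over the 10 genes and 2.04-fold over all genes kept. Within the contralateral group the median SD of log2 CPM was 0.19 for the clock genes and 0.19 for all genes.

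Counts were also examined by transcript. Arntl, Clock, Cry1 and Dbp had 1 transcript each in the files. In Per3, transcripts annotated as retaining an intron took 26.0% to 33.0% of the gene's counts, with tenotomy replicates at 26.0% and 33.0%, so the tenotomy group spanned the range of all libraries. The protein-coding transcripts of Cry2 took 92.7% to 94.8% of its counts in contralateral, 82.4% and 88.2% in tenotomy and 85.7% and 88.9% in uninjured libraries. These shares rest on the estimated split of reads between transcripts and were not tested. By exons, Nr1d1 shares 263 bases (8.5% of its exonic bases) with Thra on the opposite strand, and Dbp shares 539 bases (18.0%) with Sphk2 on the opposite strand. The protocols do not say that strand was kept, so reads of those stretches cannot be told apart. Thra had 173.1 to 254.8 counts per library and Sphk2 45.3 to 80.2, against 156 to 365 for Nr1d1 and 137 to 328 for Dbp.

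Genes with the most similar profile over the 7 libraries were sought among 2007 genes of mean log2 CPM of at least 3. For Dbp they were Dbi, Itga7, Acadsb, Agpat3 and Scp2, with root mean square differences in centred log2 CPM of 0.11 to 0.13, where Dbp itself deviated from its mean by 0.45 and the median gene differed from it by 0.50. Each of these 5 genes was lower in the tenotomy libraries and uninjured replicate 1 than in the other libraries. The choice by likeness to Dbp over these same libraries sets this split, so it is not a further result. For Arntl they included Ap3d1, Htt, Prdx1 and Copb2, with differences of 0.13 to 0.15 against its own deviation of 0.29. With 10 to 22 counts of Arntl per library, that likeness is weakly measured.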

How the data were processed

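RNA of 7 mouse tendon libraries was quantified per transcript. Per the submitters' processing notes, FastQC 0.11.4 and kallisto were used. These notes list the human build GRCh38, while the transcript IDs in the files are of mouse. Per the file headers, each table holds estimated counts, which carry no normalization. The authors' tables also give TPM, which is relative to effective length and library total. Of 103639 transcript IDs, 101510 matched GENCODE M21 (GRCm38) without version. Estimated counts were summed per gene, rounded, filtered (filterByExpr, minimum count 10), scaled by TMM and tested with edgeR 4.0.16 (R 4.3.3; quasi-likelihood, 3 group means, all 7 libraries, 16028 genes), with Benjamini-Hochberg adjustment and a threshold of 0.05. SE is the log2 fold change divided by the square root of F. Log2 CPM used a prior count of 2. CPM per kb divides CPM by the count-weighted mean effective length.

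No pair of libraries agreed within sampling noise (chi-square per degree of freedom at least 4.02). The members and lists were chosen with earlier results of these data known. Named were the 10 clock genes, those of 22 other clock genes past the threshold at the tenotomy site, and the 5 genes most like Dbp and Arntl. Some genes that these rules select are not reported here. The casein kinases and the members of the response lists were named after their values were seen. Scripts were tested on simulated counts. Alternatives were DESeq2 1.42.0, limma-voom (limma 3.58.1), other scalings, filters and samples, a series covariate and length-scaled TPM. Libraries carry no replicate numbers in the labels, so numbers follow accession order.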

Additional observations from a re-analysis of the deposited data

How the results depend on the processing

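For tenotomy against contralateral tendon, 2 of 10 clock genes passed, and the same 2 with DESeq2, limma-voom, RLE and upper quartile scaling, a minimum count of 30 and removal of the 5 largest features. The count was 1 with length-scaled TPM (19.6% of all genes passed), 7 with only the groups compared (46.1%) and 0 when any contralateral library was left out. With the title-number series as covariate, single tenotomy and uninjured libraries set the differences. Counts given below for that covariate are therefore not results of whole groups. Of the 22 other clock genes 8 passed, 4 with length-scaled TPM (18.2%, against 19.6% of all genes) and 13 with only the groups compared (59.1%, against 46.1%). The count was 0 without any contralateral library. Over all genes, 4643 passed, 7385 with only the groups compared, 0 without any contralateral or tenotomy library, and 7308 and 7336 without uninjured replicate 1 and 2. Against uninjured tendon, leaving out single libraries gave 0 to 4 clock genes and 0 to 9 others for the tenotomy site, and 0 to 6 and 0 to 9 for contralateral tendon, where 5 others passed with the series covariate. Over all genes, 0 passed in both; at the tenotomy site 140 did with DESeq2, 15 with no filter, 4 with the series covariate, and 4275 and 14 without uninjured replicate 1 and 2. For contralateral tendon these counts were 218, 337, 2466, 105 and 5393.

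Small fold changes that missed the threshold reversed. With the series covariate, tenotomy replicate 1 alone set the tenotomy side against contralateral tendon. Tenotomy replicate 2 and uninjured replicate 1 alone set the difference of tenotomy from uninjured tendon. Tenotomy against contralateral, Cry1 was 0.050 with upper quartile scaling, 0.071 with the series covariate and -0.28 to 0.13 without single libraries. Tenotomy against uninjured, Per2 was 0.0080 with upper quartile scaling, 0.21 with the series covariate and -0.15 to 0.091 without single libraries. Arntl was -0.11 and Cry2 0.12 with the series covariate, and -0.19 to 0.61 and -0.43 to 0.24 without single libraries. Per1 was -0.15 with length-scaled TPM and -0.13 to 0.20 without single libraries, and Cry1 -0.020 to 0.45. Contralateral against uninjured, Cry2 was -0.0026 with length-scaled TPM. Without single libraries, Arntl was -0.47 to 0.32, Nr1d1 -0.00090 to 0.72, Dbp -0.11 to 0.79 and Per3 -0.24 to 0.052. The causes were not tested. Of all 642 fold changes refitted, 526 kept direction and side of the threshold. The direction of the group means of all 6 Arntl ratios held under TPM and the main transcript alone. With the main transcript the ratio to Per3 overlapped, at -3.07 in tenotomy replicate 1 and -2.96 in contralateral replicate 2. In CPM per kb, leaving out 1 library could not reverse the direction, because each tenotomy value lay above each contralateral value. All 6 ratios share the same Arntl counts and are not separate results. No paired analysis was possible because no label says which libraries came from the same mouse. Where 1 library of a group was left, it was assumed to vary like the other groups. Arntl and Cry1, with 10 to 22 and 31 to 61 counts per library, are limited by depth.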
